A study of Mus musculus with 14 samples.

Results

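Npnt, Npy, Scrg1, A2m and Hs3st1 were 5 genes with a large rise in the mammary tumors of MMTV-neu mice. They were chosen for that rise, out of 8252 genes that the arrays name, of which 6397 had a probe set that passed the filter on dim signals. Each had 1 probe set, and all 5 probe sets passed. The filter asks for signal on at least 3 arrays, so a gene that is bright in tumors alone passes it. In MMTV-neu mice a promoter from the mouse mammary tumor virus directs the oncogene neu, a form of the receptor gene Erbb2, to mammary epithelium.

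RNA was measured in 4 groups with 14 arrays, 1 sample per array. The Tumor group held 5 MMTV-neu mammary tumors (numbered 22, 24, 26, 50 and 52), and Tumor_setB held 2 further MMTV-neu tumors (80 and 81), added to see whether the changes of the first recur. The AdjacentNeu group held 4 MMTV-neu glands that lay next to a tumor and are described as preneoplastic (23, 25, 49 and 51). The AMWT group held 3 age-matched wild-type glands, each a pool of RNA from 5 mice. Pool 40 was from mice of 31 weeks of FVB (87.5%) and CF-1 (12.5%) background, and pools 41 and 42 from mice of 41 weeks of FVB (97%) and CF-1 (3%) background. The ages of the transgenic mice were not used here. The labels do not say whether 2 tumors, 2 glands, or a tumor and an adjacent gland could share an animal. The fits treat all samples as independent. The p-values then measure only the spread between these samples, which may be technical. Pooling averages differences between mice, so the pools may vary less than single wild-type mice would.

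Nephronectin, the product of Npnt, is a protein of basement membranes that binds the integrin made of Itga8 and Itgb1 and is known for its part in kidney development. Neuropeptide Y, from Npy, is a peptide transmitter of neurons and sympathetic nerves that acts through a family of G protein-coupled receptors. Scrg1 (scrapie responsive gene 1) encodes a small secreted protein known from brain and from cartilage-forming cells, A2m encodes the secreted protease inhibitor alpha-2-macroglobulin, and Hs3st1 encodes a sulfotransferase that completes the antithrombin-binding site of heparan sulfate. The products of Npnt, Npy, Scrg1 and A2m leave the cell, whereas the enzyme encoded by Hs3st1 acts in the lumen of the Golgi, so "secreted" fits the 5 genes only loosely.

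The 5 genes lie apart in the genome. In GRCm38.p6, Npnt spans chr3:132881745-132950291, Npy chr6:49822710-49829507, Scrg1 chr8:57455882-57479360, A2m chr6:121636165-121679238 and Hs3st1 chr5:39613935-39645592. The symbol A2m has also been used for the related gene Pzp, but the probe set here is annotated to gene ID 232345, and Pzp has a probe set of its own. RefSeq promoter windows of GRCm38.p6, from 250 bases before to 50 bases after an annotated start, were at hand for 3 of the 5 genes, Npnt, Npy and Hs3st1. They are shown because they differ in the GC box (GGGCGG on either strand), whose letters are in capitals, in genes that were all higher in tumors.
Npnt, chr3:132950242-132950541, minus strand: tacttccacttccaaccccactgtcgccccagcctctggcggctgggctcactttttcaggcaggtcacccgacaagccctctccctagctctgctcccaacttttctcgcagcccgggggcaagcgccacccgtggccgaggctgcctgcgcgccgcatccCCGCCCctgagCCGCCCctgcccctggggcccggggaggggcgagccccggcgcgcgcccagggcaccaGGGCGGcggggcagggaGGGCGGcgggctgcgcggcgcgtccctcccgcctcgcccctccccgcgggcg
Npy, chr6:49822460-49822759, plus strand: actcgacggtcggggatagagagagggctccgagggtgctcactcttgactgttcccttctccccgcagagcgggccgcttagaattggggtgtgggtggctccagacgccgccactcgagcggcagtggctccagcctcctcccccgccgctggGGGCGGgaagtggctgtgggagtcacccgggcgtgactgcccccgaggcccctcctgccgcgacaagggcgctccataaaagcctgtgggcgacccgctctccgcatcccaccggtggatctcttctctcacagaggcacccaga
Hs3st1, chr5:39644582-39644881, minus strand: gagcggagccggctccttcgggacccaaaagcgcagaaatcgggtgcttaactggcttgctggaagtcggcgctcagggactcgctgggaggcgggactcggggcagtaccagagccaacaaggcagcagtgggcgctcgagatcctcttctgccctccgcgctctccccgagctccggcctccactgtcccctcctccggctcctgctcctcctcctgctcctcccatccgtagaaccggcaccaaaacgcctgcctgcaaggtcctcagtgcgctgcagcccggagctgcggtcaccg
The Npnt window holds the GC box 4 times, the Npy window 1 time and the Hs3st1 window 0 times. Of 32851 mouse promoter windows of this length, 35.7% hold it. A TATA box (TATAAA), an AP-1 site (TGANTCA), an ETS core (CCGGAA) and a cAMP response element (TGACGTCA) were looked for on both strands and matched in none of these 3 windows. Those letters occur in 13.6%, 7.81%, 14.9% and 1.79% of all windows. The 3 windows were rich in G and C, at 76.7%, 68.0% and 67.0% against a median of 52.7% over all windows. They held 32, 24 and 24 CpG pairs, against a median of 7. A match of letters is a description and does not show binding. A second Npnt start has a window at chr3:132949765-132950064, which held none of the 5 motifs.

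The values are intensities on a linear scale, which the authors, judging by the values, had brought to a common trimmed mean. Values under a floor of 101 count as not measured above background and were set to the floor before log2. All log2 differences and standard errors (SE) come from 1 limma fit over the 14 arrays, and calls were made at an adjusted p under 0.05. Levels of one gene are not set against those of another, because probe sets differ in response. The genes were chosen for their rise in tumors, taken here as that of the Tumor group, so its differences are given as description, without a test. The choice was also made with the set B values at hand, and Scrg1, A2m and Hs3st1 passed the dim filter only through the tumor arrays, being above its percentile on 2, 1 and 2 of the 7 other arrays. The differences of set B are therefore description too. The comparison of adjacent with wild-type gland was tested, against pools that had also served the choice.

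The tissue stood as follows. Summed over 16 luminal epithelial markers, intensity was 97776 to 159327 in Tumor, 93414 to 126228 in Tumor_setB, 66286 to 105127 in AdjacentNeu and 56950 to 62854 in AMWT. Over 11 markers of white fat it was 4718 to 10672 in Tumor, 5664 to 6596 in Tumor_setB, 91524 to 160691 in AdjacentNeu and 188297 to 270339 in AMWT, with Plin4 and Cidec at the floor in every tumor. Fat markers were thus lower in all tumors than in either kind of gland. Luminal sums of all tumors were higher than in AMWT, while those of Tumor and of set B both overlapped AdjacentNeu. Of the 15 luminal markers tested, 10 were higher in Tumor than in AMWT and 1 was lower, beside 15.8% and 14.7% of all genes. The lower one was Krt19, a luminal keratin gene, at -5.78 ± 0.64 (limma adjusted p = 5.95e-06), or -4.54 in the fit with lot (limma adjusted p = 0.0639). Over 13 markers of skeletal muscle the sums were 5811 to 14944 in Tumor, 5040 to 6223 in Tumor_setB, 5857 to 52668 in AdjacentNeu and 71911 to 135510 in AMWT. The sum was thus lower in every adjacent gland than in any pool. Of the 12 muscle genes tested, 3 were called lower there, beside 1.17% of all probe sets called in either direction. In the fit with lot 10 were called lower, beside 56 of 8616 probe sets called. That fit compares glands 49 and 51 (5994 and 5857) with pool 40 alone (135510), the highest pool. Over 10 basal markers they were 5991 to 11190 in Tumor, 7910 to 9677 in Tumor_setB, 24170 to 43318 in AdjacentNeu and 31552 to 37374 in AMWT. Over 10 endothelial markers they were 6757 to 9748 in Tumor, 6084 to 7889 in Tumor_setB, 13109 to 27340 in AdjacentNeu and 25765 to 31414 in AMWT. In bulk tissue, fewer cells of a type and less RNA per cell cannot be told apart. The log2 ratio of 3′ to 5′ actin signal, a sign of RNA length, was 0.08 to 0.76 in Tumor, 0.14 to 0.21 in Tumor_setB, 0.38 to 1.52 in AdjacentNeu and 0.90 to 1.51 in AMWT. The labels give 5 array lots. Tumors 22, 24 and 26 shared lot 2001815 with glands 23 and 25 of the AdjacentNeu group, and glands 49 and 51 shared lot 2004907 with pool 40. By the numbers given, no lot held both tumors and wild-type pools, and set B had a lot of its own, so for set B lot and group cannot be told apart. The part of cell content, RNA length and lot in the results was not tested beyond the values given below.

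Npnt, the matrix ligand, was high in every tumor and spanned a 2.48-fold range among them. Its intensities were 23677, 10424.5, 20795, 25403 and 15828 in tumors 22, 24, 26, 50 and 52, and 14998 and 25866 in set B tumors 80 and 81. The adjacent glands had 4024, 746.5, 10960 and 616.7 (glands 23, 25, 49 and 51), and the AMWT pools had 533.8, 323.9 and 184.1 (pools 40, 41 and 42). Every tumor lay above every pool, and so did every adjacent gland, but adjacent gland 49 exceeded tumor 24. The first tumors lay above all pools for 18.8% of probe sets. Geometric means were 18320 in Tumor, 19696 in Tumor_setB, 2123 in AdjacentNeu and 316.9 in AMWT. The log2 difference of Tumor minus AMWT was 5.85 ± 0.71 (SE, n = 5 and 3), the largest rise of the 6397 genes. It was 5.60 ± 1.60 once array lot entered as a block, a fit in which pool 40 alone stands for AMWT. Tumor minus AdjacentNeu was 3.11 ± 0.65, and within lot 2001815 it was 3.32.

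Npy, the neuropeptide gene, had the widest range among tumors of the 5 genes. It had 1463, 6377, 32813, 8884 and 2148 in tumors 22, 24, 26, 50 and 52, and 2572 and 2367 in set B tumors 80 and 81. The adjacent glands had 895.0, 1045, 552.2 and 314.3, and the AMWT pools had 188.4, 101.8 and 119.0. The groups formed 3 separate steps: the 7 tumors lay above the 4 adjacent glands, which lay above the 3 pools, and the highest tumor had 22.4 times the level of the lowest. Tumor minus AMWT was 5.43 ± 0.73 on the log2 scale and 3.95 ± 1.57 with lot as a block. Tumor minus AdjacentNeu was 3.16 ± 0.67, and 2.80 within lot 2001815.

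Scrg1, the gene known from brain and cartilage, did not rise above the floor in any AMWT pool. It had 6151, 1137, 6625, 4309 and 4338 in tumors 22, 24, 26, 50 and 52, and 5870 and 10842 in set B tumors 80 and 81. The adjacent glands had 1191, 158.8, 2094 and 88.6, the last of which is under the floor, and the AMWT pools had 44.0, 67.5 and 53.9. Tumor 24 was the lowest tumor, and both adjacent glands 23 and 49 exceeded it. Tumors were at least 38.1-fold higher than AMWT, a log2 difference of 5.25 ± 0.81, and 5.23 ± 1.89 with lot as a block. Tumor minus AdjacentNeu was 3.11 ± 0.74, and 3.05 within lot 2001815.

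A2m, the protease inhibitor gene, was low or at the floor in AMWT. Tumors 22, 24, 26, 50 and 52 had 3785, 1070, 825.0, 1248 and 1622, and set B tumors 80 and 81 had 5372 and 817.3. The adjacent glands had 804.2, 251.3, 273.4 and 29.5, and the AMWT pools had 12.6, 34.6 and 124.4, so gland 51 and pools 40 and 41 were under the floor. Every tumor lay above every adjacent gland, although set B tumor 81 and adjacent gland 23 were close, and adjacent glands overlapped the pools. Tumor minus AMWT was 3.75 ± 0.65 on the log2 scale, a 13.5-fold difference that is a lower bound, and 2.45 ± 1.37 with lot as a block. Tumor minus AdjacentNeu was 2.42 ± 0.60, and 1.73 within lot 2001815.

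Hs3st1, the heparan sulfate enzyme gene, had the smallest rise of the 5 and no settled order of adjacent and wild-type gland. Tumors 22, 24, 26, 50 and 52 had 2659, 5860, 942.8, 923.7 and 1785, and set B tumors 80 and 81 had 1552 and 1187. The adjacent glands had 718.5, 70.6, 427.3 and 181.4, and the AMWT pools had 310.4, 261.2 and 339.7. Every tumor lay above every other array, and the adjacent glands lay on both sides of the pools, with gland 25 under the floor. The mean was 349 ± 288 in AdjacentNeu and 304 ± 39.7 in AMWT (SD, n = 4 and 3), but geometric means were 274 in AdjacentNeu and 302 in AMWT, a log2 difference of -0.14 that was 0.26 with array quality weights, 0.34 without gland 25 and 0.06 without gland 51. Tumor minus AMWT was 2.65 ± 0.61 on the log2 scale, or 6.26-fold, and 3.02 ± 1.35 with lot as a block. Tumor minus AdjacentNeu was 2.79 ± 0.56, and 3.18 within lot 2001815.

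**Figure D1:**
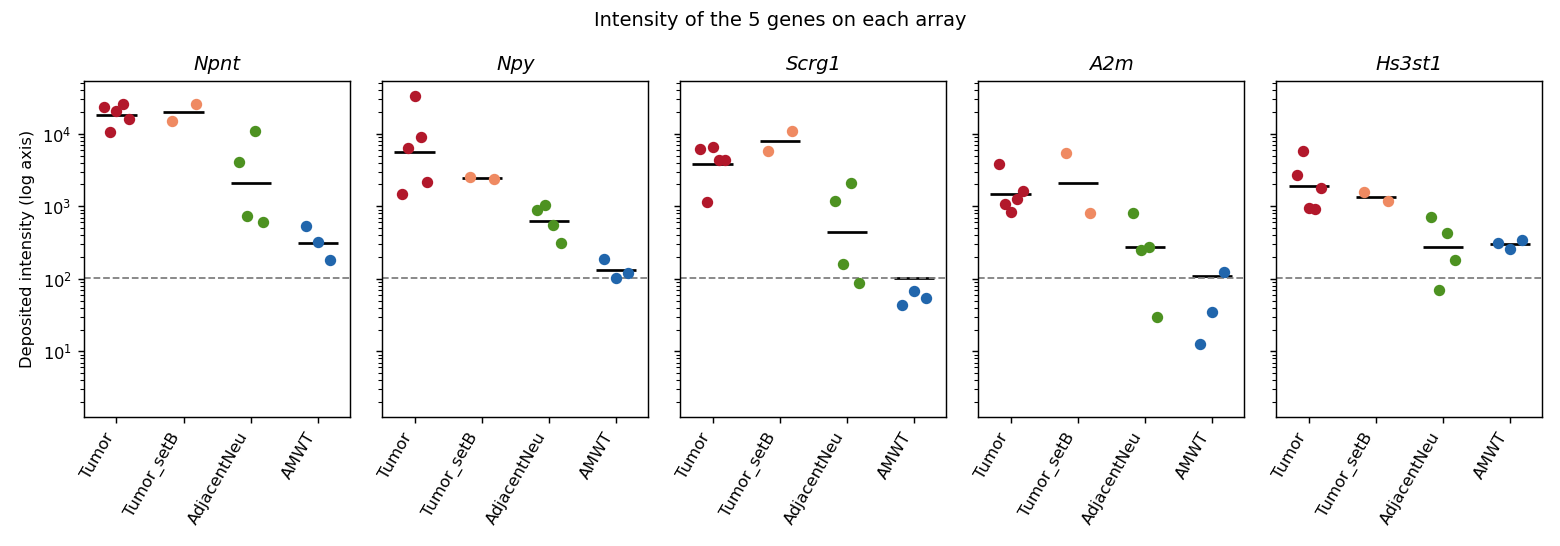
Deposited intensity (log axis) of Npnt, Npy, Scrg1, A2m and Hs3st1 on each of the 14 arrays, by group, with 1 point per array, a bar at the geometric mean of floored values and a dashed line at the floor of 101. For Npy the groups form separate steps, Scrg1 is under the floor in the 3 AMWT pools, and adjacent gland 49 (10960) is the one array outside the tumors that reaches tumor levels of Npnt.

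By the size of their rise from AMWT to Tumor among 6397 genes, the 5 genes stood at rank 1 (Npnt), 2 (Npy), 3 (Scrg1), 18 (A2m) and 58 (Hs3st1). For Tumor minus AdjacentNeu their ranks were 3, 1, 2, 9 and 5. The gene just above A2m in the first order was Xdh, at a log2 difference of 3.78, and the gene just below it was Tpd52l1, at 3.69. In Tumor minus AMWT, 29.9% of all 8616 probe sets tested were called in either direction and 15.8% were called higher. In Tumor minus AdjacentNeu the same shares were 14.4% and 5.34%, and all tumors lay above all adjacent glands for 4.97% of probe sets. Npy, A2m and Hs3st1 had that separation, and Npnt and Scrg1 did not. No test is read from these counts, because the genes were chosen on this rise.

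The set B tumors, which the labels present as a second look at the same changes, lay above every wild-type pool for all 5 genes. On the log2 scale, with n = 2 and 3, Tumor_setB minus AMWT was 5.96 ± 0.89 (SE) for Npnt, or 62.1-fold. Scrg1 was at least 78.7-fold higher, at 6.30 ± 1.01. A2m differed by 4.27 ± 0.81, a lower bound, Npy by 4.23 ± 0.91 and Hs3st1 by 2.17 ± 0.77, so Hs3st1 again had the smallest rise. The median log2 difference was 4.27 for the 5 genes and 0.05 for all probe sets. Of the 5 genes, 4 were past limma's threshold, all but Hs3st1, beside 11.2% of all probe sets called higher. Both set B tumors lay above every pool for 29.9% of probe sets. Nothing is read from these counts, because the genes had been chosen for high levels in tumors.

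Set B also lay above all 4 adjacent glands for the 5 genes, as it did for 18.4% of probe sets. Tumor_setB minus AdjacentNeu was 4.16 ± 0.96 for Scrg1, 3.21 ± 0.84 for Npnt, 2.94 ± 0.77 for A2m, 2.31 ± 0.73 for Hs3st1 and 1.96 ± 0.87 for Npy (log2 ± SE, n = 2 and 4). Npy, second in the rise against AMWT among the first tumors, was thus the smallest here. The median was 2.94 for the 5 genes and -0.05 for all probe sets. All but Npy were past limma's threshold, beside 5.75% of probe sets called higher, and nothing is read from this count either. It was 1 of the 5 genes without set B tumor 80 or without set B tumor 81, 1 without the dim filter and 1 when the fit held just these groups.

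**Figure D2:**
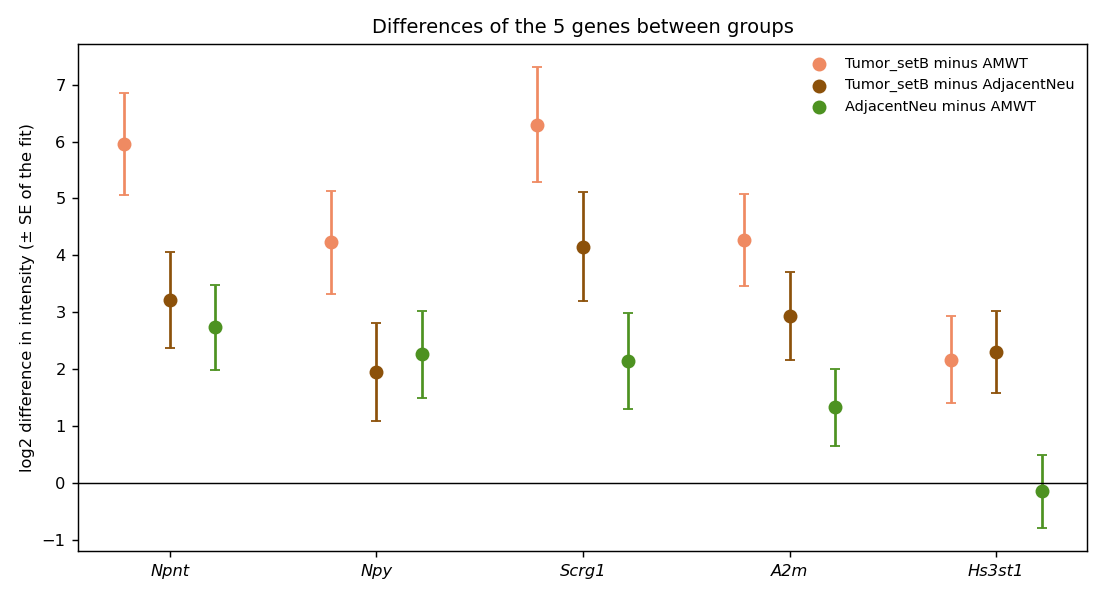
Log2 difference in intensity with the SE of the limma fit for each of the 5 genes, in Tumor_setB minus AMWT, Tumor_setB minus AdjacentNeu and AdjacentNeu minus AMWT. The set B differences lie between 1.96 and 6.30, and AdjacentNeu minus AMWT is near 0 for Hs3st1 (-0.14) and 2.74 for Npnt.

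Set B and the first tumors had close means for Npnt and less close ones for the other genes. Tumor_setB minus Tumor was 0.10 ± 0.82 for Npnt, -1.20 ± 0.84 for Npy, 1.04 ± 0.93 for Scrg1, 0.52 ± 0.75 for A2m and -0.48 ± 0.70 for Hs3st1 (log2 ± SE, n = 2 and 5). The differences of Npnt, A2m and Hs3st1 were smaller than their errors and those of Npy and Scrg1 larger, and no test is given because the Tumor group had chosen the genes. The A2m value turned with a single tumor: it was -0.84 without set B tumor 80 and 1.87 without set B tumor 81.

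In adjacent gland, 3 of the 5 genes had means several-fold above wild-type gland without passing the test. Npnt differed by 2.74 ± 0.75 on the log2 scale (limma, n = 4 and 3, adjusted p = 0.0838), Npy by 2.27 ± 0.76 (limma adjusted p = 0.168) and Scrg1 by 2.14 ± 0.84 (limma adjusted p = 0.252). A2m differed by 1.33 ± 0.68 and Hs3st1 by -0.14 ± 0.64 (limma adjusted p = 0.376 and 0.944). With limma, 0 of the 5 genes were called and 3 had an unadjusted p under 0.05, where 1.17% of all probe sets were called and 0.72% were called higher. For Npnt, Npy and Scrg1 every adjacent gland lay above every pool in deposited intensity, as in 7.71% of probe sets, although for Scrg1 gland 51 and the pools were all under the floor. Within lot 2004907, glands 49 and 51 minus pool 40 gave 2.28 for Npnt, 1.14 for Npy, 2.18 for Scrg1, 0.72 for A2m and -0.16 for Hs3st1. Npnt was called without adjacent gland 25 (limma adjusted p = 0.0433) and without adjacent gland 51 (limma adjusted p = 0.0233), the 2 glands with the least Npnt. Of 14 omissions of 1 array, the other 12 gave no call of Npnt. The pools had also served the choice of the genes, which limits what these p-values can show.

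The adjacent glands did not form 1 level. For Npnt and Scrg1, glands 23 and 49 were high and glands 25 and 51 low, 2 of each in different lots: lot 2001815 held glands 23 and 25, and lot 2004907 held glands 49 and 51. The SD of log2 values over the 4 glands was 1.99 for Npnt and 2.14 for Scrg1, at the 99.6th and 99.8th percentile of all probe sets, whose median SD was 0.42. It was 0.78 for Npy, 1.22 for A2m and 1.26 for Hs3st1. The summed luminal markers were 93099, 66286, 105127 and 92443 in glands 23, 25, 49 and 51, so gland 51 had about the luminal sum of gland 23 and 616.7 of Npnt against 4024. Whether these glands held tumor cells was not tested.

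Taking the groups in order, Npnt, Npy, Scrg1 and A2m stepped down across tumors, adjacent gland and wild-type gland. Set B lay above Tumor in mean for Npnt, Scrg1 and A2m and below it for Npy and Hs3st1. Tumor minus AdjacentNeu was 2.42 to 3.16 on the log2 scale over the 5 genes, a range narrower than the 2.65 to 5.85 of Tumor minus AMWT. Adjacent and wild-type gland did not differ past the threshold for any of the 5.

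Among the 7 tumors the 5 genes varied unequally. The SD of log2 values over the 7 tumors was 0.49 for Npnt, at the 63.3rd percentile of all probe sets, whose median SD was 0.40. It was 0.95 for Hs3st1 (93.6th percentile), 1.01 for Scrg1 (95.2nd), 1.07 for A2m (96.5th) and 1.57 for Npy (99.5th). The highest tumor had 2.48 times the lowest for Npnt, 6.34 times for Hs3st1, 6.57 times for A2m, 9.54 times for Scrg1 and 22.4 times for Npy. The tumors at the extremes differed by gene. Tumor 26 had the most Npy and tumor 22 the least, tumor 24 had the most Hs3st1 and the least Npnt and Scrg1, and set B tumors 80 and 81 had the most and the least A2m. Tumor 22 was the second highest for A2m and Hs3st1. Set B tumor 81 had the most Npnt and Scrg1, so each of 4 tumors led for 1 or more genes.

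**Figure D3:**
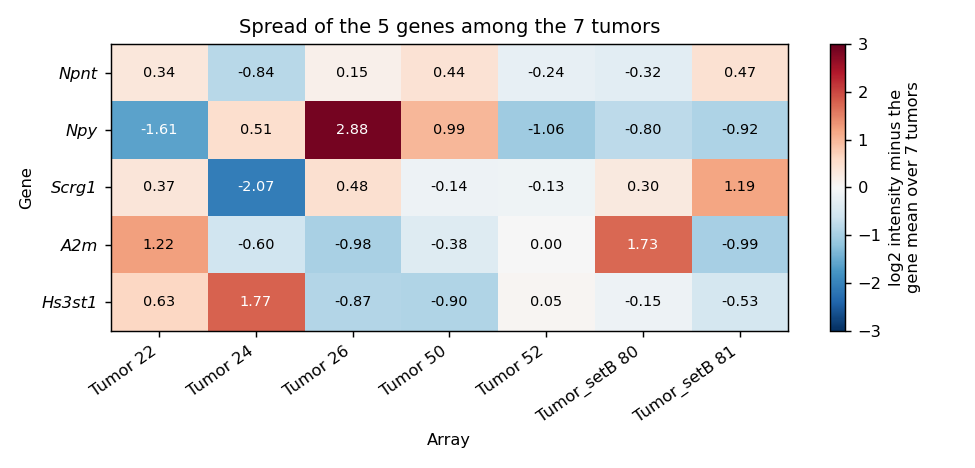
Log2 intensity of the 5 genes in each of the 7 tumors, as the difference from the gene's mean over these tumors (colour and printed value). Npnt stays within -0.84 and 0.47, Npy runs from -1.61 (tumor 22) to 2.88 (tumor 26), and tumor 24 is low for Scrg1 (-2.07) and high for Hs3st1 (1.77).

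Over the 7 tumors, 10 pairs of genes were correlated on the log2 scale. After the Benjamini-Hochberg adjustment none passed (lowest adjusted p = 0.216, exact two-sided permutation test), and 1 had an unadjusted p under 0.05. This was Npnt with Scrg1, at Pearson's r = 0.80 (exact permutation p = 0.0319, adjusted 0.216) and Spearman's rho = 0.57 (exact permutation p = 0.200, adjusted 0.622). Without tumor 24 and set B tumor 80, the tumors farthest from the median of Npnt, r was 0.49. Npnt with Hs3st1 gave r = -0.73 and Scrg1 with Hs3st1 gave r = -0.76, and without the 2 farthest tumors these were -0.26 and 0.15. Npnt with Npy gave r = -0.01.

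**Figure D4:**
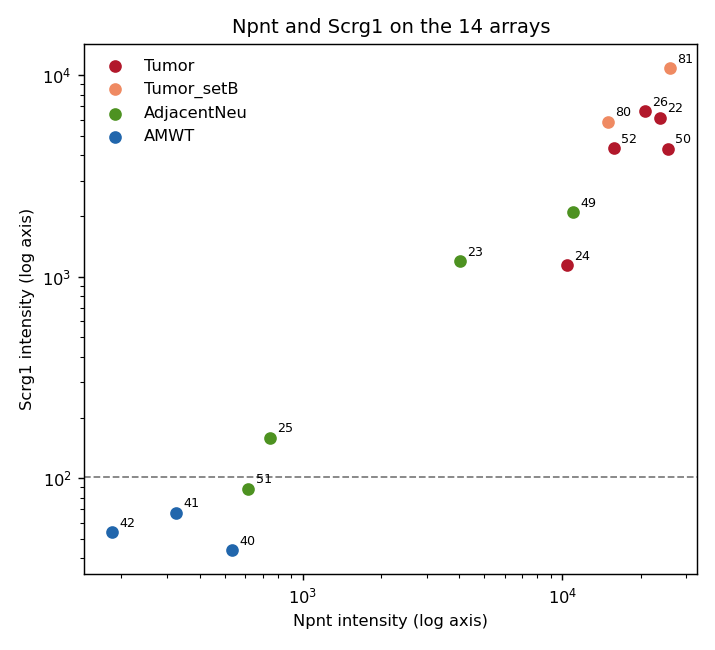
Scrg1 intensity against Npnt intensity (both log axes) on the 14 arrays, coloured by group and labelled by sample number, with the floor of 101 as a dashed line. Adjacent glands 23 and 49 lie near tumor 24, and adjacent glands 25 and 51 lie near the AMWT pools.

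The genes whose pattern over the 14 arrays was most like that of each of the 5 were taken as the 3 with the highest Pearson's r of log2 values, among 6397 genes. The arrays share their group structure, which sets much of such an r, so these values are a description. For Npnt they were Flvcr2 (0.99), Tspan8 (0.98) and Socs2 (0.98), and among the 7 tumors alone r was 0.81, 0.10 and 0.83. For Scrg1 they were Smagp (0.98), Cystm1 (0.97) and Npnt itself (0.97), with 0.84, 0.77 and 0.80 among the tumors. For A2m they were Mpg (0.98), Ier2 (0.95) and Rab10 (0.94), with 0.97, 0.71 and 0.76 among the tumors. Npy was nearest to Ctbp2, Retreg1 and Slc66a2 (each 0.91), and Hs3st1 to Xrcc5 (0.91), Mia (0.90) and Rab14 (0.90). Npy and Hs3st1 therefore had no neighbour as close as those of the other 3.

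The genes known to work with the 5 were taken from 5 lists of 113 genes, of which 76 were on the array and 48 were tested. In Tumor minus AMWT 16 were higher and 7 lower (47.9% called, against 30.6% of all genes, 15.8% higher and 14.7% lower), and in Tumor minus AdjacentNeu 7 were higher and 8 lower (31.2%, against 15%, 5.75% higher and 9.29% lower). With lot as a block, where 4.18% of probe sets were called in Tumor minus AMWT, 3 of the 23 calls held (Col9a1, Lrp1 and Il6st). With the block 7 held in Tumor minus AdjacentNeu, where 6.93% of probe sets were called. The lists were drawn up with earlier results of these data known, so no support is taken from these counts.

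Of the integrins and ligands around nephronectin, 8 of 9 genes on the array were tested, and in Tumor minus AMWT 2 were higher, 1 was lower and 5 were not called. Their median log2 difference was 0.64, against 0.13 for all genes. Itgb1, the beta chain shared by many integrins, was higher by 0.75 ± 0.17 (limma adjusted p = 0.00397), at 26241 to 35118 in Tumor and 14272 to 21043 in AMWT. Itgb5, the chain that pairs with Itgav to bind vitronectin, was higher by 0.96 ± 0.25 (limma adjusted p = 0.00853). Vtn, which encodes vitronectin, was lower, at -2.90 ± 0.57 (limma adjusted p = 0.00113). Itga8, the alpha chain of the main nephronectin receptor, had 138.9, 596.3, 326.8, 1911 and 364.0 in tumors 22, 24, 26, 50 and 52, and 909.5 and 1862 in set B tumors 80 and 81. It had 157.0, 141.7, 307.9 and 111.0 in the adjacent glands and 191.7, 250.2 and 94.5 in the AMWT pools. Tumor 50 and both set B tumors were the highest. Tumors 24, 26 and 52 also lay above every gland and pool, and tumor 22 overlapped them. Itga8 was not called in Tumor minus AMWT (1.41 ± 0.65, limma adjusted p = 0.115) and was called in Tumor_setB minus AMWT (2.94 ± 0.82, limma adjusted p = 0.0159). The 2 tumor groups did not differ past the threshold (Tumor_setB minus Tumor 1.53 ± 0.75, limma adjusted p = 0.476).

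No tested gene of the neuropeptide Y list was called in Tumor minus AMWT. The list holds receptors and processing enzymes, and also the related hormone gene Ppy and granule protein genes. Of 16 genes on the array 6 were tested (Ppy, Npy2r, Cpe, Dpp4, Chga and Scg3). With limma 0 were called and 2 had an unadjusted p under 0.05 (Ppy and Scg3), with a median log2 difference of 0.10 against 0.13 for all genes. The receptor genes Npy1r, Npy4r, Npy5r and Npy6r stayed below the filter, and Npy5r was under the floor on every array. Npy1r had 208.6 to 355.6 in Tumor, 125.4 and 177.5 in Tumor_setB, 92.7 to 651.8 in AdjacentNeu and 184.9 to 220.9 in AMWT, so the groups overlapped. Npy2r, the receptor gene that passed the filter, differed by 0.41 ± 0.41 (limma adjusted p = 0.480). Pcsk1 and Pam, which encode a prohormone convertase and the enzyme that amidates peptides, were below the filter too, and Pam had 82.9 to 695.1 in Tumor, 36.3 and 68.8 in Tumor_setB, 59.5 to 208.5 in AdjacentNeu and 223.4 to 348.1 in AMWT. Cpe, which encodes the carboxypeptidase that trims peptide precursors, had 16177 in tumor 24 and 299.0 to 541.0 in the other 4 of the first tumors, against 1443 to 1828 in AMWT. Dpp4, whose protease cleaves neuropeptide Y, differed by 0.09 ± 0.29 (limma adjusted p = 0.843). Scg3, a granule protein gene, was lower in Tumor minus AdjacentNeu (-1.93 ± 0.45, limma adjusted p = 0.00820).

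Npy is a neuronal gene in other tissues, so markers of neurons and Schwann cells were read beside it. Summed over 12 markers, intensity was 28623 to 47575 in Tumor, 29454 to 29893 in Tumor_setB, 20359 to 34064 in AdjacentNeu and 21032 to 22696 in AMWT. Of 8 tested, 3 were higher and 1 was lower in Tumor minus AMWT, beside 15.8% and 14.7% of all genes. The median log2 difference of the 8 was 0.49, against 0.13 for all genes. In Tumor_setB minus AMWT 2 were higher and 1 lower, with a median of -0.10 against 0.04 for all genes. There 1998 of 8616 probe sets were called in either direction. Only the 3 genes called higher in Tumor minus AMWT are described next, so their values leave out the 1 called lower. Sox10, a transcription factor gene listed here as a Schwann cell marker, was higher by 1.89 ± 0.31 (limma adjusted p = 0.000248). It had 7994 to 23341 in Tumor, 12716 to 13956 in Tumor_setB, 6442 to 13232 in AdjacentNeu and 4123 to 4499 in AMWT. The cells that gave its signal were not tested. Erbb3, a receptor gene that epithelium also expresses, was higher by 1.54 ± 0.29 and Tubb3, a tubulin gene, by 0.54 ± 0.20 (limma adjusted p = 0.000871 and 0.0498). In the fit with lot Sox10 and Tubb3 were still called (limma adjusted p = 0.0182 and 0.0395) and Erbb3 was not (limma adjusted p = 0.435). Snap25, a synaptic gene, was under the floor on every array, and Nefm, a neurofilament gene, was under it on every array but 1 tumor of the first group (237.0). The part of nerve tissue in the level of Npy was not tested. For A2m, a liver gene in other settings, 6 hepatocyte markers summed to 350.6 to 1636 in Tumor, 600.1 to 800.1 in Tumor_setB, 708.0 to 1373 in AdjacentNeu and 1276 to 1465 in AMWT. Both set B tumors lay below every pool, and the other pairs of groups overlapped. Fgb, a fibrinogen gene, was under the floor in every tumor and every adjacent gland, but not in every pool. Ahsg, the fetuin A gene, had 69.3 to 550.4 in Tumor and 177.1 to 213.9 in Tumor_setB, against 38.2 to 154.4 in AdjacentNeu and 61.2 to 100.7 in AMWT. Of the 2 hepatocyte markers tested, 0 were called in Tumor minus AMWT, with a median log2 difference of -0.44 against 0.13 for all genes. Ttr, the transthyretin gene, differed by 0.45 ± 0.65 there (limma adjusted p = 0.633). The other of the 2 was lower in Tumor without a call, and 1 of the 2 had an unadjusted limma p under 0.05. In Tumor_setB minus AMWT 1 of the 2 was called lower and 0 higher, where 1998 of 8616 probe sets were called in either direction. The part of such cells in the level of A2m was not tested.

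Cartilage genes, which were read beside Scrg1, were higher in Tumor than in AMWT for 6 of the 7 tested, beside 15.8% of all genes. These 7 were among 16 on the array, and 0 were lower in Tumor minus AMWT, with a median log2 difference of 1.40 against 0.13 for all genes. Col11a1, which encodes a chain of fibrillar collagen XI, had 10875, 8688, 5501, 14008 and 6045 in tumors 22, 24, 26, 50 and 52, and 7236 and 12486 in set B tumors 80 and 81. It had 4027, 1540, 3954 and 450.7 in the adjacent glands and 362.7, 374.1 and 265.5 in the AMWT pools. As for Npnt and Scrg1, adjacent glands 23 and 49 were the higher ones. Col11a1 was higher in Tumor than in AMWT by 4.68 ± 0.55 (limma adjusted p = 1.14e-05). Col9a1, a chain of collagen IX, was higher by 3.99 ± 0.36 (limma adjusted p = 8.26e-07). It had 11096 to 32306 in Tumor and 864.4 to 1129 in AMWT, and it was the one gene of the list that the fit with lot still called (3.48, limma adjusted p = 0.0156). Col9a2 (1.75 ± 0.26), the transcription factor gene Sox6 (1.40 ± 0.44), the matrix protein gene Chad (1.35 ± 0.48) and Col9a3 (0.82 ± 0.27) made up the rest. In Tumor_setB minus AMWT 4 of the 7 were higher and 0 lower, beside 11.2% of all probe sets called higher. In AdjacentNeu minus AMWT Col9a1 was the one called, at 2.33 ± 0.38 (limma adjusted p = 0.0114), beside 0.72% of all probe sets called higher. The fit with lot gave 2.20 there, which was not called (limma adjusted p = 0.172). Col2a1 and Acan, which encode the main collagen and proteoglycan of cartilage, were below the filter, as was Bst1, a reported receptor of SCRG1. Geometric means in Tumor and AMWT were 229 and 283 for Col2a1 and 111 and 106 for Acan. Sox9 was not among the genes named on the array. Col9a1 and Col11a1 entered the list with their rise known.

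Around alpha-2-macroglobulin, 7 of 12 genes on the array were tested, and 1 was higher and 2 were lower in Tumor minus AMWT, with a median log2 difference of -0.35. Lrp1, the receptor that clears complexes of alpha-2-macroglobulin and protease, had 1596, 2364, 1669, 1601 and 1226 in the first tumors and 1198 and 1140 in set B, against 7140, 4748, 5258 and 7448 in the adjacent glands and 7388, 8236 and 7799 in AMWT. Every tumor lay below every other array, and Tumor minus AMWT was -2.24 ± 0.21 (limma adjusted p = 1.09e-06), and the fit with lot gave -1.90 (limma adjusted p = 0.0279). Lrp1 is also strong in fibroblasts, whose 11 markers summed to 14129 to 38742 in Tumor, 17026 to 21461 in Tumor_setB, 107097 to 191870 in AdjacentNeu and 131035 to 161247 in AMWT, and their part in the fall of Lrp1 was not tested. Il6st, the signalling chain shared by receptors of the interleukin 6 family, was lower by the same amount, at -2.24 ± 0.29 (limma adjusted p = 2.47e-05). Hspa5, a chaperone gene, was higher by 0.79 ± 0.21 (limma adjusted p = 0.00922). The related macroglobulin genes Pzp, Mug1 and Mug2 were below the filter, and Mug1 was under the floor on every array.

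The heparan sulfate pathway changed in both directions. Of 23 genes on the array 20 were tested, and 7 were higher, 4 lower and 9 not called in Tumor minus AMWT, with a median log2 difference of 0.02 against 0.13 for all genes. Of the chain-building and sulfating enzymes, Hs2st1, a 2-O-sulfotransferase, was higher by 1.06 ± 0.28 (limma adjusted p = 0.00853) and Ext1, a polymerase, by 0.76 ± 0.25 (limma adjusted p = 0.0310), whereas Extl3, which starts the chains, was lower at -1.26 ± 0.27 (limma adjusted p = 0.00220). The sulfate supply split by gene, with the transporter gene Slc26a2 higher by 2.13 ± 0.58, Papss1 higher by 1.62 ± 0.26 and Papss2 lower at -2.25 ± 0.39 (limma adjusted p = 0.0118, 0.000224 and 0.000410). Both Papss genes make the sulfate donor. Of the core proteins, Sdc3 (1.64), Sdc2 (1.26) and Agrn (0.74) were higher, and Hspg2 (-1.17) and Gpc1 (limma adjusted p = 0.00833) were lower. Papss1 and Sdc2 were also higher, and Papss2 and Gpc1 lower, in Tumor minus AdjacentNeu in the fit with lot (limma adjusted p = 0.0452, 0.0334, 0.0448 and 0.0300). Serpinc1, which encodes antithrombin, the partner of the site that Hs3st1 makes, was under the floor on every array.

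**Figure D5:**
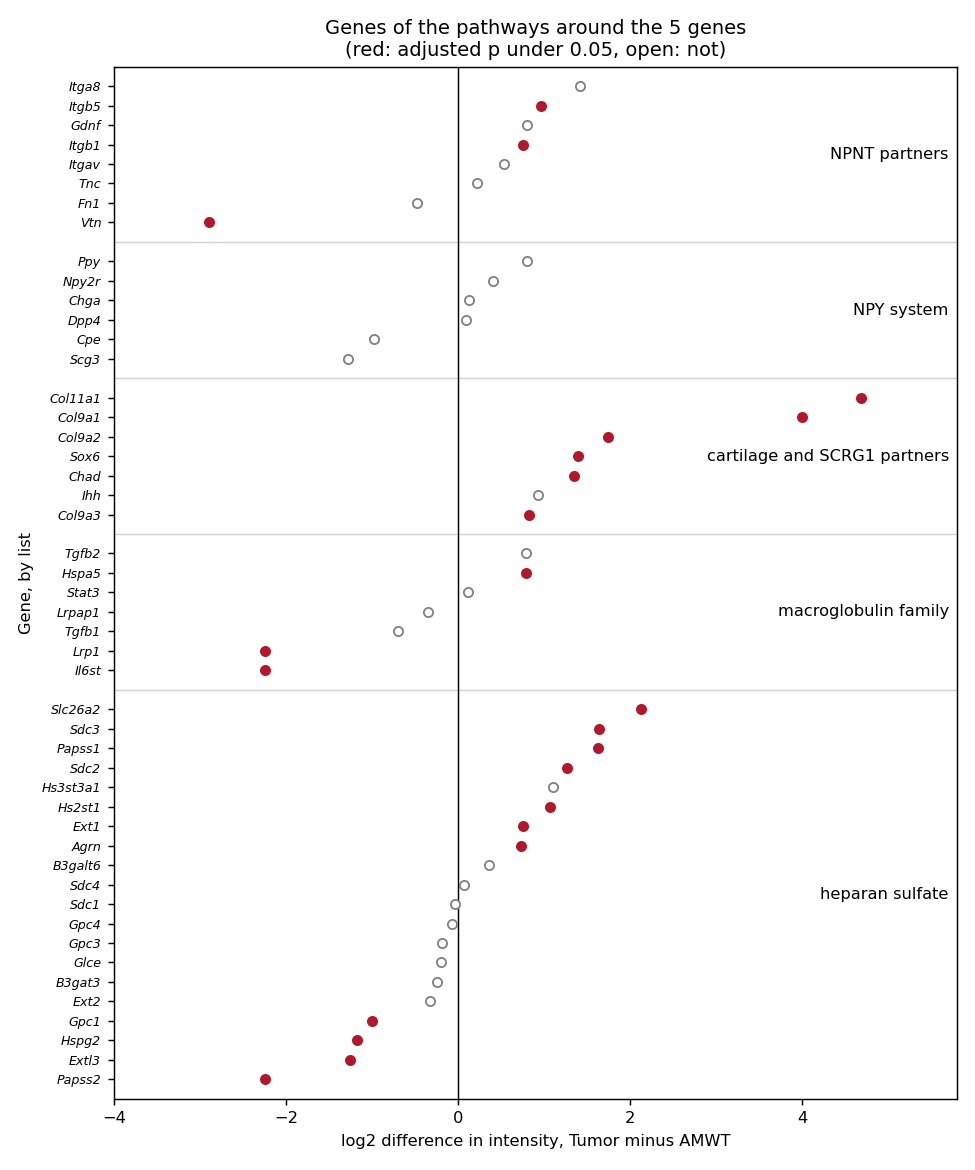
Log2 difference in intensity, Tumor minus AMWT, of the 48 tested genes of 5 lists, 1 row per gene, with genes of an adjusted p under 0.05 in red. In the cartilage list 6 of 7 genes are higher and none lower, in the neuropeptide Y list 0 of 6 pass, and the heparan sulfate list has 7 higher and 4 lower.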

How the data were processed

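The 14 mouse mammary samples were each measured on a 1-colour oligonucleotide array. The deposited table holds 1 linear intensity per array for 12488 probe sets, taken as scaled by the authors because every array had nearly the same 2%-trimmed mean (1500.67 to 1500.90, with medians of 544 to 784). The sources used here do not name the software behind it. Precision is limited by the number of arrays.

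The 20th percentile of all values, 101.42 (printed as 101), served as a floor to which lower values were raised before log2. Left out were 66 control probe sets and 3806 dim ones, which exceeded their array's 40th percentile on fewer than 3 arrays, leaving 8616, with 2.32% of values at the floor. Where every array of the lower group was at the floor, a fold is written as at least, and where only some were, it is also a lower bound. Names come from the platform annotation: 10855 probe sets had 1 gene, 396 several and 1237 none, and 10839 symbols were updated by gene ID to GRCm38.p6. A gene of several probe sets was read from the brightest.

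All arrays entered 1 model of 4 group means in limma 3.58.1 (R 4.3.3) with an intensity trend. The residual degrees of freedom were 10 and the prior ones 5.75. The two-sided p-values were adjusted by Benjamini and Hochberg within a comparison over all probe sets tested. Array lot was added as a fixed block, as a random block and by fits within a lot. The named partner genes were direct partners of the 5 products and the called genes of each list with the largest changes, and others of the lists are named where they complete a group. The members and all lists were chosen with earlier results of these data known.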

Additional observations from a re-analysis of the deposited data

Results flagged for a closer look

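Scrg1 in tumor 24 stood apart from the other 4 tumors of the first group. Its intensity was 1137, against 4309 to 6625 in tumors 22, 26, 50 and 52. On the log2 scale the gap to the nearest tumor was 0.756 of the group's range, past Dixon's 95% critical value of 0.71 for 5 samples. This was 1 of 10 groups looked at (5 genes in Tumor and in AdjacentNeu), and chance alone marks about 1 group in 20. The same tumor had the lowest Npnt (10424.5) and the highest Hs3st1 (5860) of the 7 tumors, and a Cpe intensity of 16177.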

How the results depend on the processing

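Up to 15 other settings and the omission of each array in turn were tried, giving 994 recomputed values. Of these, 31 were weaker (a lost call or a lower count of calls) and 17 stronger (a gained call or a higher count). Among the differences given without a test, 7 values moved by at least the residual SD of the fit. In all, 6 values turned sign. The sign turned for Hs3st1 in AdjacentNeu minus AMWT and in Tumor_setB minus Tumor for A2m (-0.84 without set B tumor 80) and Npnt (-0.10 without tumor 24 and -0.29 without set B tumor 81). In Tumor_setB minus AdjacentNeu, 4 of the 5 genes were past the threshold, 1 without a filter on dim probe sets, 1 with only the 2 groups compared, and 1 to 4 with an array left out, the low end being without set B tumor 80 or 81. In AdjacentNeu minus AMWT, 0 were called, 1 with array quality weights (Npnt, limma adjusted p = 0.0131) and 0 to 1 with an array left out. Hs3st1, which had -0.14 there, turned to 0.26 with array quality weights, 0.34 without adjacent gland 25 and 0.06 without adjacent gland 51, in a range of -0.60 to 0.34 with an array left out. The partner genes called in Tumor minus AMWT numbered 23, 3 with lot as a fixed block, 10 with lot 2004097 read as a misprint of 2004907, and 16 to 24 with an array left out. In Tumor minus AdjacentNeu they numbered 15, 7 with the lot block, 1 with only the arrays of 1 lot and 10 to 18 with an array left out. The median log2 rise of the 5 genes in Tumor minus AMWT was 5.25, 3.95 with the lot block and 4.79 to 5.39 with an array left out. The cause of these changes was not tested. Fits within a lot or of 2 groups also held fewer arrays. For set B, lot could be added only as a random block. The lot of set B held no other group, so this fit cannot separate lot from group there. The calls stayed except that of Hs3st1 against AdjacentNeu (limma adjusted p = 0.0797), and nothing is read from them. The settings for the correlations, leaving out each tumor and quantile normalization, were chosen after seeing the data and gave 0 pairs past the adjustment. No paired analysis was run, because the labels do not say which tumor and adjacent gland, if any, came from the same animal. The sample numbers differ for every array and cannot show this. Signal at the floor makes tumor differences of A2m and Scrg1, and those of Hs3st1 against AdjacentNeu, lower bounds. In AdjacentNeu minus AMWT both groups hold floored values of A2m and Scrg1, so those differences are no bound.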
